A study of Mus musculus with 28 samples.

Results

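Genes that the transcription factor p53 is known to activate were followed through mouse mammary cells and tumours: Cdkn1a, Ccng1, Plk2, Mdm2, Bbc3, Perp, Aen, Trp53inp1, Sesn2 and Zmat3. These 10 genes were chosen by name, as known p53 targets, with earlier results of these data known. They were taken out of 17097 genes with an annotated probe set on an Affymetrix array. They have 18 probe sets that name no other gene. The brightest of each gene on average was read in all 28 arrays, and the remaining probe sets of 6 of the genes served as a check. All 10 genes passed the filter on dim signals. Their lowest position on any array ran from the 48.1th percentile of that array for Zmat3 to the 94.9th for Cdkn1a.

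The study asked what an oncogenic form of the kinase PIK3CA, the H1047R variant, does when it is switched on in luminal or in basal cells of the adult mammary gland. Luminal cells line the milk ducts, and basal cells form the contractile layer around them. Cre recombinase was driven by the keratin 8 promoter in luminal cells (K8CREERT2) or by the keratin 5 promoter in basal cells (K5CREERT2). It was activated by tamoxifen in female mice first injected at 4 to 5 weeks of age, and recombined cells carried the YFP reporter RosaYFP. For all samples the labels give 5 mg of tamoxifen and 3 injections. All cells were isolated by flow cytometry before RNA extraction.

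Normal luminal cells came from K8CREERT2/RosaYFP mice and normal basal cells from K5CREERT2/RosaYFP mice, each at 8 weeks and at 10 months after tamoxifen. K8-PIK cells came from K8CREERT2/PIK3CA-H1047R/RosaYFP mice at 8 weeks, from the luminal gate and from the basal gate. K5-PIK cells came from K5CREERT2/PIK3CA-H1047R/RosaYFP mice at 10 months, from both gates. Each of these 8 groups had 2 arrays. Tumour cells came from K5-PIK mice (3 arrays), from K8-PIK mice (7 arrays) and from K8CREERT2/PIK3CA-H1047R/p53flox/flox/RosaYFP mice (2 arrays), which are called p53-deleted tumours here. The labels do not give the time of tumour collection, nor whether replicates are separate animals, so p-values measure the spread between these samples, which may be technical. The transcript of the deleted gene itself is not analysed here.

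p53 is held low in unstressed cells by the ubiquitin ligase MDM2, and it accumulates after DNA damage or oncogene signalling. It then binds paired copies of a short motif near its target genes and raises their transcription. The targets include brakes on the cell cycle, inducers of cell death, and Mdm2 itself, which closes a negative feedback loop. In the mammary gland, loss of p53 is known to speed up tumour formation by oncogenes.

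Promoter stretches with a match to the p53 motif are shown first, because p53 acts on its targets through this motif. They are the decamer pairs found, in Cdkn1a and Ccng1, and the single decamer of Mdm2, the gene of the feedback loop, and they were not chosen by how these genes differed. RefSeq promoter windows, from 250 bases before to 50 bases after an annotated start on build GRCm38.p6, were at hand for 7 of the 10 genes, in 11 windows. The p53 decamer consensus was searched by its standard degenerate form on both strands. Paired decamers with a spacer of 0 to 3 bases and at most 2 mismatches lay in 2 of the 11 windows, those of Cdkn1a and Ccng1. Of all 32851 windows of that length, 1.35% held such a pair. A single decamer without mismatch lay in 5 of the 11 windows, belonging to Cdkn1a, Mdm2, Ccng1 and Aen, and in 8.36% of all windows. Of 38 windows of further p53 targets, a list read below, 10.53% held a single decamer and 5.26% a pair. The 2 windows of Aen overlap and share 1 match. The stretches below run 5′ to 3′ on the strand of the gene, with the matched decamer pair of Cdkn1a and Ccng1 and the single decamer of Mdm2 in capitals.
Cdkn1a: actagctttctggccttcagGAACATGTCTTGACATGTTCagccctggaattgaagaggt
Ccng1: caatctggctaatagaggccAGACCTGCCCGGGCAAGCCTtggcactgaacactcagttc
Mdm2: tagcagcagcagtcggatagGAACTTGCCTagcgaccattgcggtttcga
The Cdkn1a stretch is chr17:29090908-29090967 on the plus strand, and its pair covers positions -51 to -32 from the more upstream of 2 annotated starts, with 1 mismatch. The window of the other Cdkn1a start, chr17:29093519-29093818, held neither a pair nor a single decamer. The Ccng1 stretch is chr11:40755442-40755501 on the minus strand, with the pair at -195 to -176 and 1 mismatch. The Mdm2 stretch is chr10:117710915-117710964 on the minus strand, with the decamer at -186 to -177. A match is a description of the letters and was not tested for binding.

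All values below are the deposited normalized expression values on a log2 scale, so a difference of 1 is a doubling. Levels of different genes are not compared, because probe sets differ in brightness. A gene is called higher or lower where the limma adjusted p-value, over all genes tested in that fit, is under 0.05. In sorted cells and tumours alike, fewer cells of a type and less RNA per cell cannot be told apart. The cell types matched their markers: the mean of 13 basal marker genes was 9.70 and 10.02 in normal basal cells against 6.72 and 6.30 in normal luminal cells. The mean of 15 luminal marker genes was 9.91 and 9.84 in normal luminal cells against 8.32 and 7.38 in normal basal cells. Replicates of a sorted group correlated at 0.962 to 0.993, those of K8-PIK tumours at 0.880 to 0.973. K8-PIK tumour 3 had the lowest mean correlation with the rest of its group, 0.900, where the other 6 were at 0.931 to 0.947, and its Epcam, an epithelial marker, was 8.08 where theirs was 10.52 to 11.31.

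**Figure D1:**
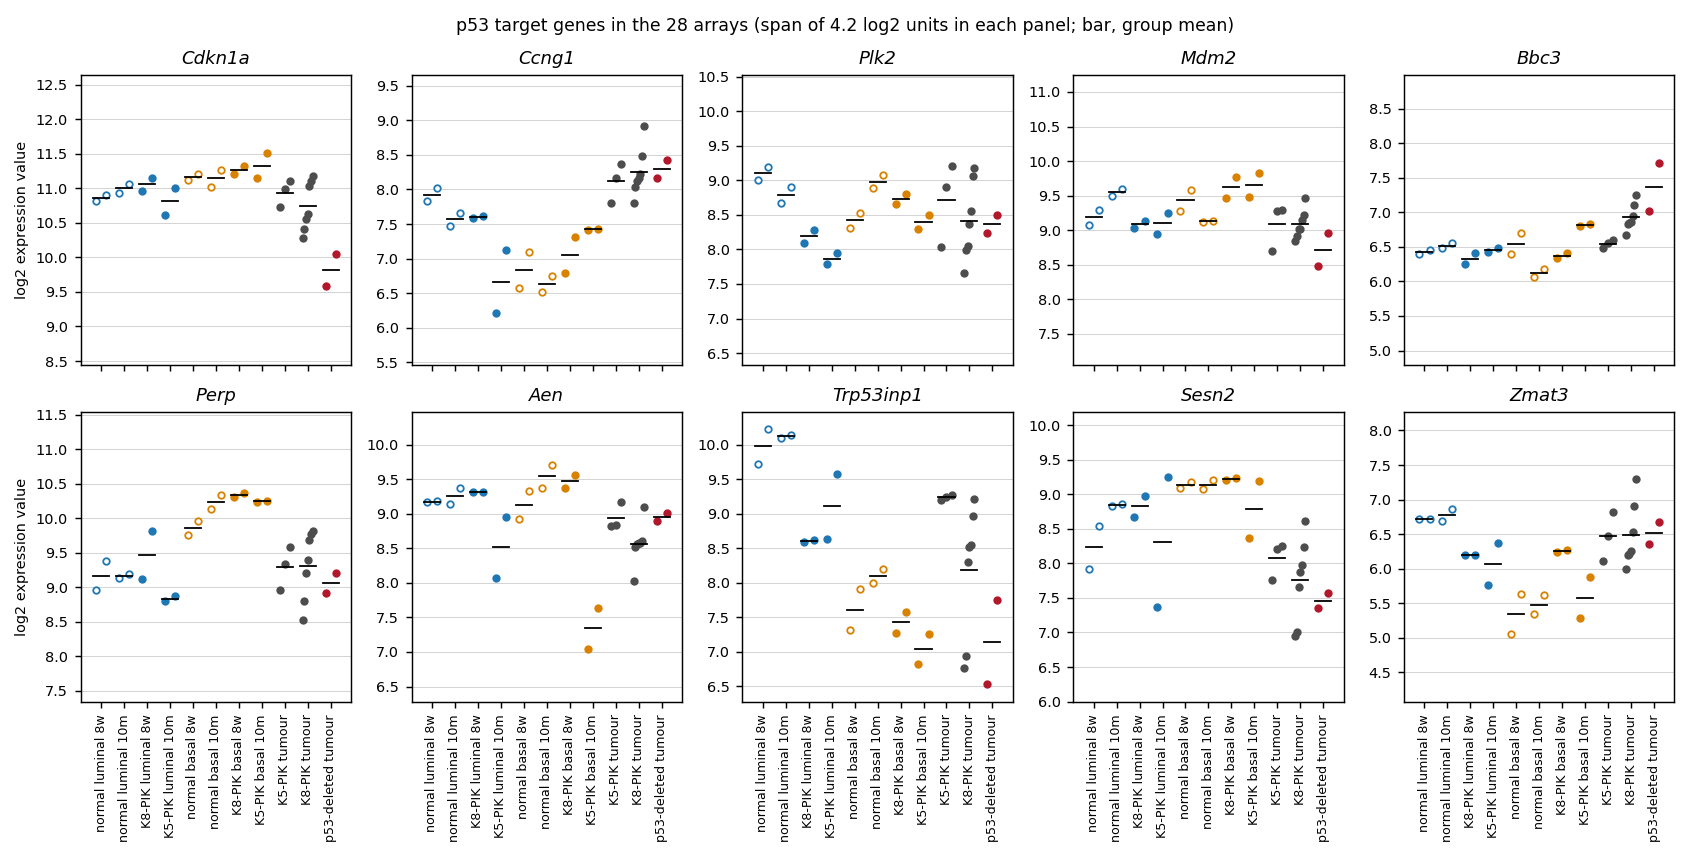
Log2 expression value of each p53 target gene (vertical axis) in each of the 28 arrays, by group (horizontal axis). Points are arrays, bars are group means, open points are normal cells, and blue, orange, grey and red mark luminal-gate, basal-gate, tumour and p53-deleted tumour samples. Both p53-deleted tumours lie below all other arrays for Cdkn1a, and Trp53inp1 spans the widest range, from 6.53 to 10.23.

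The question of the p53-deleted tumours was addressed first, by comparing them with K8-PIK tumours that carry the same oncogene and Cre driver. None of the 10 genes was called by limma, where 43 of 13244 genes (0.325%) were called, 0.227% higher and 0.0982% lower, and 2615 had an unadjusted p under 0.05. Only 2 of the 10 had an unadjusted p under 0.05. The median difference of the 10 genes was -0.15, beside 0.04 over all genes tested, and 4 of the 10 had a difference above 0.

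Cdkn1a, which encodes the cell cycle inhibitor p21, was 10.05 and 9.58 in the p53-deleted tumours. It was 10.28, 11.11, 10.41, 11.18, 10.63, 10.56 and 11.04 in K8-PIK tumours 1 to 7. Both p53-deleted arrays were lower than every K8-PIK tumour, and lower than every other array of the study. The difference was -0.93 ± 0.25 (SE, 1.90-fold lower, 95% interval -1.48 to -0.37), with a limma adjusted p of 0.113. Over 18 alternative settings the limma adjusted p ran from 0.0132, in the fit on all 28 arrays, to 0.425, and it was under 0.05 in 3 of them. Without K8-PIK tumour 3 it was 0.0404. The second Cdkn1a probe set followed the first at r = 0.980 over the 28 arrays, as a description of arrays that include all groups, and gave -1.12 with a limma adjusted p of 0.139.

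Mdm2, the ubiquitin ligase that degrades p53, was 8.95 and 8.48 in the p53-deleted tumours. The K8-PIK tumours ran from 8.84 to 9.46 with a median of 9.02. The groups overlapped, and the difference was -0.37 ± 0.21 with a limma adjusted p of 0.351. Trp53inp1, a stress protein that promotes cell death and autophagy, was 6.53 and 7.75 against 6.76, 8.55, 6.94, 9.21, 8.96, 8.30 and 8.52 in K8-PIK tumours 1 to 7. Its difference of -1.04 ± 0.59 had a limma adjusted p of 0.349. K8-PIK tumours 1 and 3 lay within the range of the p53-deleted tumours for this gene, and the other 5 lay above it.

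Bbc3 encodes PUMA, a protein that triggers mitochondrial cell death, and it lay on the other side. It was 7.02 and 7.72 in p53-deleted tumours against 6.67 to 7.25 (median 6.86) in K8-PIK tumours. The difference was 0.44 ± 0.19, with an unadjusted limma p of 0.0431 and an adjusted p of 0.240. Aen, an exonuclease that takes part in cell death, was 9.01 and 8.90 against 8.03 to 9.10 (median 8.57), a difference of 0.39 ± 0.22. For Ccng1, Zmat3 and Plk2 the differences were 0.05, 0.04 and -0.04. The 95% intervals of these differences still reached from -0.51 to 0.60 for Ccng1, from -0.65 to 0.72 for Zmat3 and from -0.92 to 0.83 for Plk2, so changes of that size could not be told from none. Perp, a membrane protein of desmosomes and of p53-dependent death, differed by -0.26 ± 0.33, and Sesn2, a stress sensor that restrains mTORC1, by -0.30 ± 0.38.

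Other genes of the pathway were read from lists of further p53 targets and of p53 regulators. Among 29 further targets 0 were called by limma, with a median difference of -0.26 and 12 of 29 above 0. Of 15 regulators tested, 1 was called. That gene was Cdkn2a, whose products p16 and p19ARF restrain CDK4 and MDM2. Cdkn2a was 7.92 and 7.87 in the p53-deleted tumours against 4.28 to 4.81 in K8-PIK tumours, a difference of 3.36 ± 0.16 with a limma adjusted p of 1.24e-06. The 16 sorted arrays ran from 3.43 to 4.09 for Cdkn2a, around the limit for dim signals, which was 3.89 to 3.99 on these arrays. Mdm4, a partner of MDM2, was 6.40 and 7.03 against 7.39 to 8.16 without overlap, and its limma adjusted p was 0.0882.

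**Figure D2:**
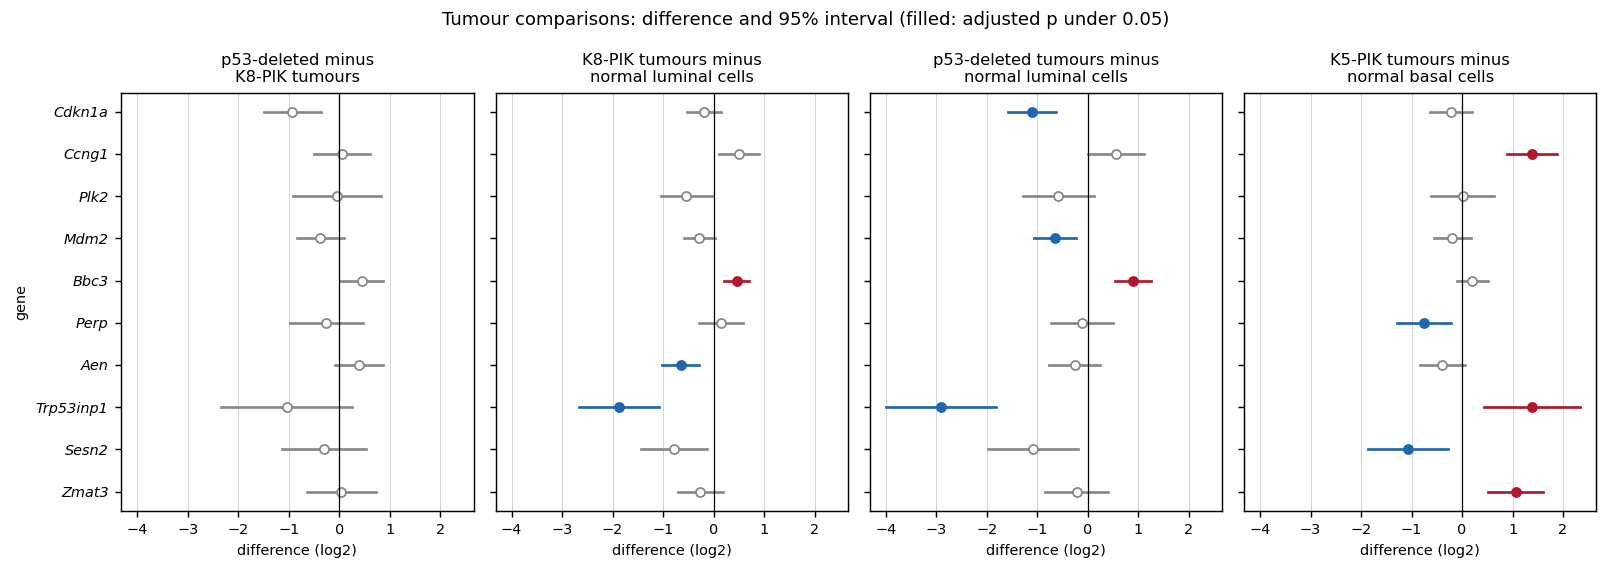
Difference in log2 expression (horizontal axis) of each p53 target gene (vertical axis) in 4 tumour comparisons, with 95% intervals from the limma fits. Filled points were called (red higher, blue lower) and open points were not. No point is filled in the first panel, and Cdkn1a and Trp53inp1 have the lowest values there.

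The 7 K8-PIK tumours differed among themselves, and some of the 10 genes, but not all, were lowest in the same tumours. K8-PIK tumours 1 and 3 had the lowest values of their group for Cdkn1a (10.28 and 10.41), Sesn2 (6.95 and 7.00) and Trp53inp1 (6.76 and 6.94). They were also lowest for Aen (8.03 and 8.52) and Zmat3 (6.20 and 6.00), whose means were not lower in p53-deleted tumours. Mdm2, Ccng1, Plk2, Perp and Bbc3 did not have their lowest pair of values there, and Bbc3 was highest in K8-PIK tumour 3 (7.25). K8-PIK tumours 1 and 3 had the highest means of 22 proliferation genes, 7.10 and 6.94, where the other 5 ran from 5.40 to 6.01. They also had the lowest means of 15 luminal markers, 8.63 and 7.60, where the other 5 ran from 9.18 to 9.91. In the mean of 13 basal markers K8-PIK tumours 1 and 3 were unlike, at 9.31 and 6.81, where the other 5 ran from 6.80 to 9.08. For the proliferation mean, the p53-deleted tumours were at 6.91 and 6.92 and the K5-PIK tumours at 5.17 to 5.60. None of the 20 proliferation genes tested was called between p53-deleted and K8-PIK tumours, with a median difference of 0.93 and all 20 above 0. The mean of 10 fibroblast markers was 7.61 and 8.50 in p53-deleted tumours and 5.08 to 8.46 in K8-PIK tumours, with Col1a2 dim in both groups. The mean of the luminal markers was 7.77 and 8.46 in p53-deleted tumours. These values were above that of K8-PIK tumour 3 (7.60) and below those of all other K8-PIK tumours (8.63 to 9.91). The part of these lists in the differences was not tested.

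With K8-PIK tumours 1 and 3 left out together, a setting chosen after the values had been seen, 2 of the 10 genes were called lower in p53-deleted tumours. They were Cdkn1a, at a difference of -1.09 with a limma adjusted p of 0.0172, and Trp53inp1, at -1.57 with a limma adjusted p of 0.0166. In that setting 1576 genes were called instead of 43. These arrays are also those with the lowest Cdkn1a and Trp53inp1 of their group, so leaving them out widens these differences by construction. Over all 18 alternatives the limma adjusted p of Trp53inp1 ran from 0.0166 to 0.876.

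**Figure D3:**
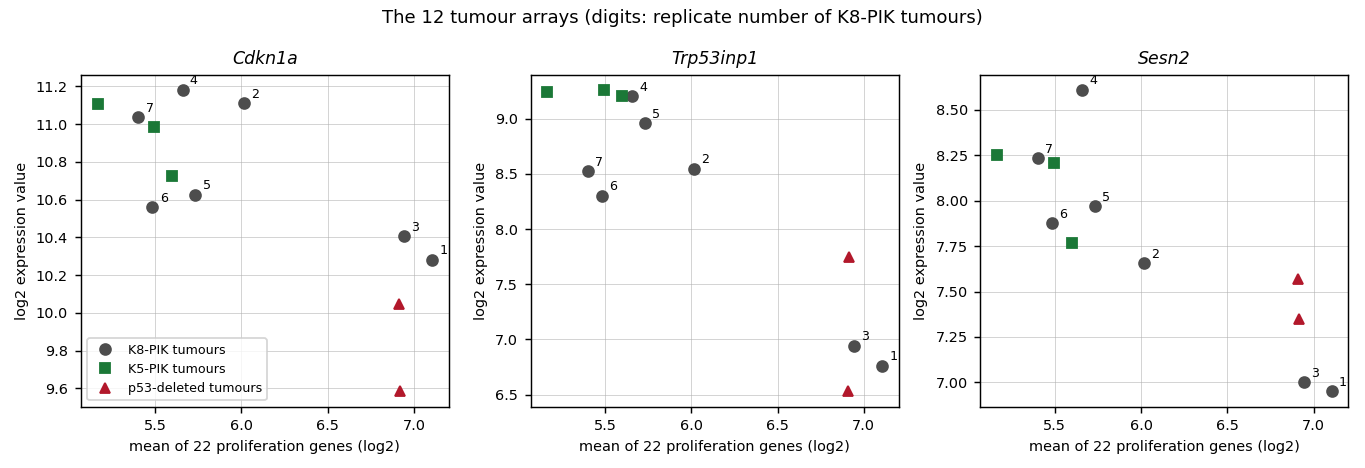
Log2 expression value of Cdkn1a, Trp53inp1 and Sesn2 (vertical axes) against the mean of 22 proliferation genes (horizontal axis) in the 12 tumour arrays. Digits number the K8-PIK tumours. K8-PIK tumours 1 and 3 lie beside the 2 p53-deleted tumours on the horizontal axis and have the lowest Sesn2 values.

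K5-PIK and K8-PIK tumours, which start from different cells, were compared next. None of the 10 genes was called, and percent called over all 13244 genes was 0, with 1225 genes at an unadjusted limma p under 0.05. Bbc3 was 6.49, 6.55 and 6.59 in K5-PIK tumours and 6.67 or above in each K8-PIK tumour, so the groups did not overlap. The difference was -0.39 ± 0.17, with a limma adjusted p of 0.528. Trp53inp1 was 9.20, 9.24 and 9.26 in K5-PIK tumours and reached from 6.76 to 9.21 in K8-PIK tumours. Its difference was 1.06 ± 0.51 with a limma adjusted p of 0.551. The narrow K5-PIK values lay at the top of the K8-PIK range. Mdm2 differed by 0.00 with a 95% interval of -0.40 to 0.40, and Cdkn1a by 0.20 with an interval of -0.28 to 0.68.

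Each kind of tumour was then set against the normal cells that its Cre driver targets, with the mean of the 8-week and 10-month groups as the reference. The comparisons of K8-PIK and of p53-deleted tumours share the 4 normal luminal arrays. In K8-PIK tumours 1 of 10 genes was called higher and 2 lower, where 4.47% and 6.13% of 13663 genes were, 10.6% in all. Trp53inp1 was 9.72 to 10.23 in the 4 normal luminal arrays, above every K8-PIK tumour. It fell by 1.87 on the log2 scale (SE 0.38, 3.66-fold lower, limma adjusted p 0.00413) and stayed called without each array in turn. Aen was 9.14 to 9.38 in normal luminal cells and 8.03 to 9.10 in the tumours. Aen fell by 0.65 (SE 0.18) with a limma adjusted p of 0.0235, while its other 2 probe sets gave -0.60 and -0.71 with limma adjusted p-values of 0.0661 and 0.121. Bbc3 was 6.39 to 6.56 in normal luminal cells and 6.67 to 7.25 in the tumours. Bbc3 rose by 0.46 ± 0.12 with a limma adjusted p of 0.0211.

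The calls of Aen and Bbc3 were lost without any 1 of the 4 normal luminal arrays, at limma adjusted p-values of 0.0610 to 0.114 and 0.0693 to 0.0944. In a fit on these 3 groups alone, none of the 10 was called, with limma adjusted p-values of 0.0510 for Trp53inp1, 0.0589 for Aen and 0.0607 for Bbc3. Sesn2, not called, was 7.93 to 8.85 in normal luminal cells and 6.95 to 8.61 in the tumours, a difference of -0.78 ± 0.31. Without K8-PIK tumour 4 its difference was -0.93 and its limma adjusted p was 0.0465. Cdkn1a differed by -0.19 ± 0.16 (95% interval -0.53 to 0.16) and Mdm2 by -0.28 ± 0.14. The median difference of the 10 genes was -0.27, beside -0.00 over all genes. Among 29 further targets 4 were called higher, with Ak1 and Phlda3 up by 3.13 and 1.77, and 1 lower. In the same comparison 5 of 13 basal markers and 4 of 9 fibroblast markers were called higher and 2 of 15 luminal markers lower. The part of these lists in the gene differences was not tested.

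In p53-deleted tumours 1 of 10 genes was called higher and 3 lower than in normal luminal cells, where 12.1% and 11.8% of 13663 genes were, 24% in all. Cdkn1a, at 10.82 to 11.06 in normal luminal cells, fell by 1.11 (SE 0.23, 2.16-fold lower, limma adjusted p 0.00202). Trp53inp1 fell by 2.91 (SE 0.52, 7.53-fold lower, limma adjusted p 0.000889). Both calls held in each of 14 alternatives. Mdm2, at 9.08 to 9.60 in normal luminal cells, fell by 0.65 (SE 0.20, limma adjusted p 0.0220). Bbc3 rose by 0.90 ± 0.17 (1.86-fold, limma adjusted p 0.00120). The arrays of the groups did not overlap for 9 of the 10 genes, Cdkn1a, Mdm2, Trp53inp1 and Bbc3 among them. Uncalled genes were among these 9 as well, so a lack of overlap did not set the called genes apart. The share without overlap over all genes was not counted.

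Without p53-deleted tumour 2, the tumour with the lower Cdkn1a and Mdm2 and the higher Bbc3, Mdm2 differed by -0.41 (limma adjusted p 0.276) and Bbc3 by 0.54 (limma adjusted p 0.0506). Mdm2 was also not called without normal luminal replicate 1 at 8 weeks or replicate 2 at 10 months, at a limma adjusted p of 0.0635 and 0.0538. In a fit on these groups alone 7 of 10 were called, with Ccng1 higher and Plk2 and Sesn2 lower in addition. The median difference of the 10 genes was -0.42, beside 0.05 over all genes. Among 29 further targets 5 were called higher and 3 lower, with Ak1, Dram1 and Phlda3 up by 3.42, 3.17 and 2.26. In these tumours 14 of 20 proliferation genes, 7 of 9 fibroblast markers tested and 3 of 13 immune markers were called higher than in normal luminal cells, and 9 of 15 luminal markers lower. The part of these lists in the gene differences was not tested.

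In K5-PIK tumours 3 of 10 genes were called higher and 2 lower than in normal basal cells, where 15.5% and 14.5% of 13663 genes were, 30% in all. Ccng1, the cyclin G that recruits a phosphatase to MDM2, was 7.81, 8.17 and 8.37 in the tumours and 6.52 to 7.10 in the 4 normal basal arrays. It rose by 1.38 ± 0.24 (2.61-fold, limma adjusted p 0.000269). Zmat3, an RNA-binding zinc finger protein, was 6.11, 6.82 and 6.47 against 5.05 to 5.63, and rose by 1.06 ± 0.26 (limma adjusted p 0.00441). For Ccng1 and Zmat3 every tumour was above every normal basal array, and both calls held without each array in turn.

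Trp53inp1 rose by 1.38 ± 0.46 (limma adjusted p 0.0281), from 7.32 to 8.20 in normal basal cells. Sesn2 fell by 1.07 (SE 0.38, limma adjusted p 0.0387), from 9.08 to 9.21 in normal basal cells to 7.77, 8.25 and 8.21. Perp fell by 0.75 (SE 0.26, limma adjusted p 0.0330), from 9.76 to 10.34 to 8.96, 9.58 and 9.34. These 3 calls depended on single arrays. With 1 array left out at a time, the Sesn2 call was lost without any 1 of the 7 arrays (limma adjusted p 0.0601 to 0.140), that of Perp held only without K5-PIK tumour 2 and that of Trp53inp1 only without replicate 2 of normal basal cells at 8 weeks or at 10 months. The range of lost values was 0.0543 to 0.154 for Perp and 0.0654 to 0.0929 for Trp53inp1. The second Trp53inp1 probe set gave 0.90 with a limma adjusted p of 0.139, and that of Sesn2 gave -0.84 with 0.0818. In the same comparison 10 of 15 luminal markers were called higher and 9 of 13 basal markers lower, as were 5 of 11 endothelial markers. The part of these lists in the gene differences was not tested. Cdkn1a and Mdm2 differed by -0.22 ± 0.20 and -0.19 ± 0.17.

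K8-PIK tumours were also set against K8-PIK luminal cells at 8 weeks, so that both sides carried the oncogene. Bbc3 was the 1 gene of 10 that was called, where 0.834% of genes were called higher and 1.66% lower, 2.5% in all. It was 6.25 and 6.42 in the K8-PIK luminal cells and rose by 0.60 ± 0.16 in the tumours (limma adjusted p 0.0446). The call was lost without K8-PIK tumour 3, 4, 6 or 7, or either K8-PIK luminal array, at limma adjusted p-values of 0.0522 to 0.335. Aen, at 9.31 and 9.32 in the K8-PIK luminal cells, differed by -0.75 ± 0.23 with a limma adjusted p of 0.0794, and by -0.83 with 0.0339 without K8-PIK tumour 4. Ccng1 was above both K8-PIK luminal arrays in each of the 7 tumours, with a difference of 0.65 ± 0.25 and a limma adjusted p of 0.162.

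Normal basal and luminal cells differed in several of the target genes without any oncogene. At 8 weeks 1 gene of 10 was called higher in basal cells and 4 lower, where 10.4% and 19.9% of 13150 genes were, 30.3% in all. At 10 months 1 was called higher and 3 lower, where 17.6% and 25.8% were, 43.4% in all. Trp53inp1 was 7.32 and 7.90 in basal against 10.23 and 9.72 in luminal cells at 8 weeks, and 8.00 and 8.20 against 10.10 and 10.15 at 10 months. It was lower in basal cells, with differences of -2.36 ± 0.30 (5.15-fold, limma adjusted p 0.000162) and -2.03 ± 0.30 (4.08-fold, limma adjusted p 0.000224). Zmat3 was 5.63 and 5.05 in basal against 6.71 and 6.71 in luminal cells at 8 weeks, and 5.34 and 5.62 against 6.69 and 6.86 at 10 months. Its differences were -1.37 ± 0.25 (limma adjusted p 0.00172) and -1.29 ± 0.25 (limma adjusted p 0.00141). The groups did not overlap for 7 of the 10 genes at each time, Trp53inp1 and Zmat3 among them. Uncalled genes were among these 7 as well, and the share without overlap over all genes was not counted. A lack of overlap thus did not set the called genes apart. The calls of Trp53inp1 and Zmat3 held without each array in turn at both times.

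Ccng1 was lower in basal cells, with differences of -1.09 ± 0.28 (limma adjusted p 0.0107) at 8 weeks and -0.94 ± 0.28 (limma adjusted p 0.0156) at 10 months. Perp was higher, at 9.76 and 9.96 in basal against 9.37 and 8.96 in luminal cells at 8 weeks (0.69 ± 0.21, limma adjusted p 0.0282), and at 10.14 and 10.34 against 9.14 and 9.19 at 10 months (1.08 ± 0.21, limma adjusted p 0.00175). Plk2, a kinase of the centrosome cycle, was called only at 8 weeks, lower in basal cells with a difference of -0.68 ± 0.17 (limma adjusted p 0.00959), whereas at 10 months it differed by 0.18 ± 0.17. The difference of Plk2 between the times was not tested. At 8 weeks the calls of Ccng1, Plk2 and Perp were each lost without basal replicate 1, among others, at limma adjusted p-values of 0.0617 to 0.199. At 10 months that of Ccng1 was lost without luminal replicate 2 or basal replicate 1 (0.0970 and 0.102). The third Ccng1 probe set gave -0.62 at 8 weeks with a limma adjusted p of 0.0861. Cdkn1a differed by 0.31 ± 0.18 and 0.14 ± 0.18, Mdm2 by 0.24 ± 0.19 and -0.42 ± 0.19, and none of these values was called.

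Of the 29 further p53 targets, 7 were higher and 6 lower in basal cells at 8 weeks, and 10 higher and 6 lower at 10 months. The largest differences were those of Phlda3, an inhibitor of AKT signalling (3.29 and 3.47), Ak1, an adenylate kinase (2.87 and 3.93), and Zfp365 (1.87 and 2.30). Among the regulators Trp63, a p53 family member and basal cell marker, was higher by 3.85 and 4.63. Trp63 is also in the list of basal markers. Of 11 endothelial markers, 9 were called higher in basal cells at each time, with list means of 6.46 and 6.23 against 5.00 and 4.74, and Sox17 was dim in all 4 groups. The part of these markers in the gene differences was not tested.

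**Figure D4:**
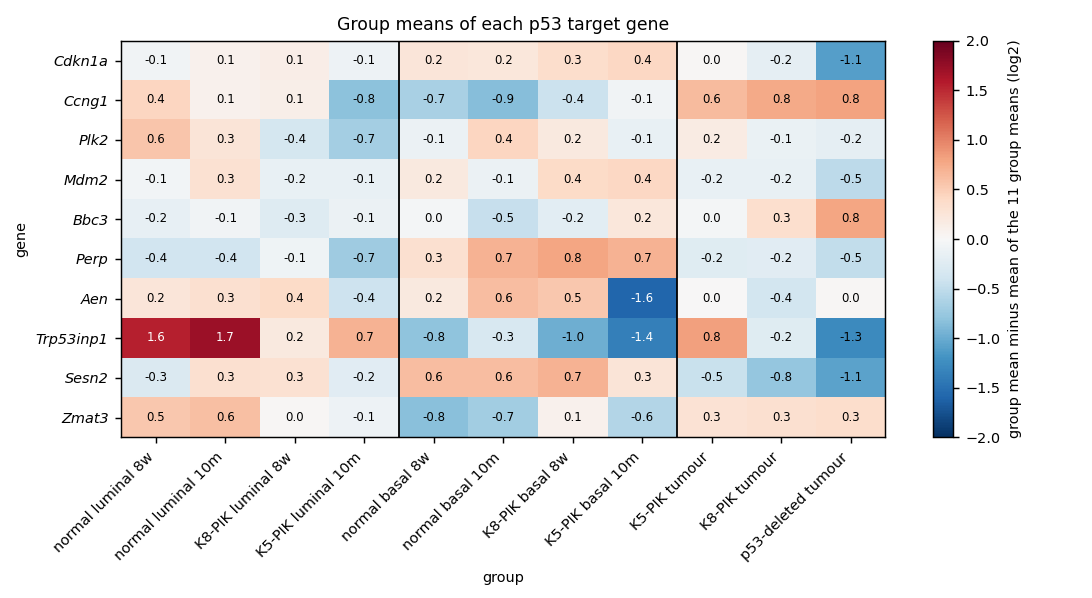
Group mean of each p53 target gene (rows) in the 11 groups (columns), as the log2 difference from the mean of its 11 group means, red higher and blue lower. The deepest colours are those of Trp53inp1 in normal luminal cells (group means 9.97 and 10.12), of Aen in K5-PIK basal cells (7.34), and of Trp53inp1 in K5-PIK basal cells (7.04) and p53-deleted tumours (7.14).

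The early effect of the oncogene was read in K8-PIK luminal cells at 8 weeks against normal luminal cells of the same time. Plk2 was the 1 gene of 10 that was called, where 0.205% of 13150 genes were called lower and 0.144% higher, 0.35% in all. It was 8.29 and 8.10 against 9.01 and 9.19, and it fell by 0.91 (SE 0.17, 1.88-fold lower, limma adjusted p 0.0437). The groups did not overlap for 7 of the 10 genes, Plk2 among them, so a lack of overlap did not set the called gene apart. How many of all genes had no overlap was not counted. The Plk2 call was lost without any 1 of the 4 arrays (limma adjusted p 0.103 to 0.333). Trp53inp1 was 8.59 and 8.62 against 10.23 and 9.72, a difference of -1.37 ± 0.30 with a limma adjusted p of 0.0769. Its second probe set gave -1.61 with a limma adjusted p of 0.0116. Cdkn1a and Mdm2 differed by 0.20 ± 0.18 and -0.10 ± 0.19. The median difference of the 10 genes was -0.10, beside -0.04 over all genes, and 0 of 29 further targets were called by limma. Basal markers were called higher for 4 of 13 genes, with list means of 8.01 and 7.17 against 6.46 and 6.98, and their part in the differences was not tested.

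In K5-PIK basal cells at 10 months 1 gene of 10 was called higher and 3 lower than in normal basal cells of that time, where 8.28% and 8.02% of genes were, 16.3% in all. Aen was 7.64 and 7.05 against 9.37 and 9.71, below all other arrays of the study. It fell by 2.20 (SE 0.27, 4.59-fold lower, limma adjusted p 0.00150), and the call held without each array in turn. The other 2 Aen probe sets gave -1.34 and -1.94, with limma adjusted p-values of 0.0141 and 0.0222. Bbc3 was 6.82 and 6.80 against 6.19 and 6.07 and rose by 0.68 ± 0.15 (limma adjusted p 0.0124). Plk2 fell by 0.58 (SE 0.17, limma adjusted p 0.0352) and Trp53inp1 by 1.06 (SE 0.30, limma adjusted p 0.0312). For Trp53inp1 the second probe set gave -0.20 with a limma adjusted p of 0.594.

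With 1 array left out at a time, the calls of Bbc3, Plk2 and Trp53inp1 held only without K5-PIK basal replicate 1, and were lost without either normal array or K5-PIK basal replicate 2, at limma adjusted p-values of 0.0636 to 0.217. Mdm2 (0.53 ± 0.19) and Ccng1 (0.79 ± 0.28) were above both normal arrays in both K5-PIK arrays and were not called (limma adjusted p 0.0698 and 0.0663). The second Ccng1 probe set gave 1.13 with a limma adjusted p of 0.0397. Among the further targets Gadd45a and Btg2 rose by 1.40 each, Ephx1 rose by 1.26 and Eda2r fell by 1.34. In this comparison 8 of 11 genes of the response to tissue dissociation were called higher, with list means of 10.89 and 11.06 against 10.18 and 10.33. At the same time 6 of 11 endothelial markers were called lower, with list means of 5.22 and 4.31 against 5.83 and 6.64. The part of these lists in the gene differences was not tested.

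**Figure D5:**
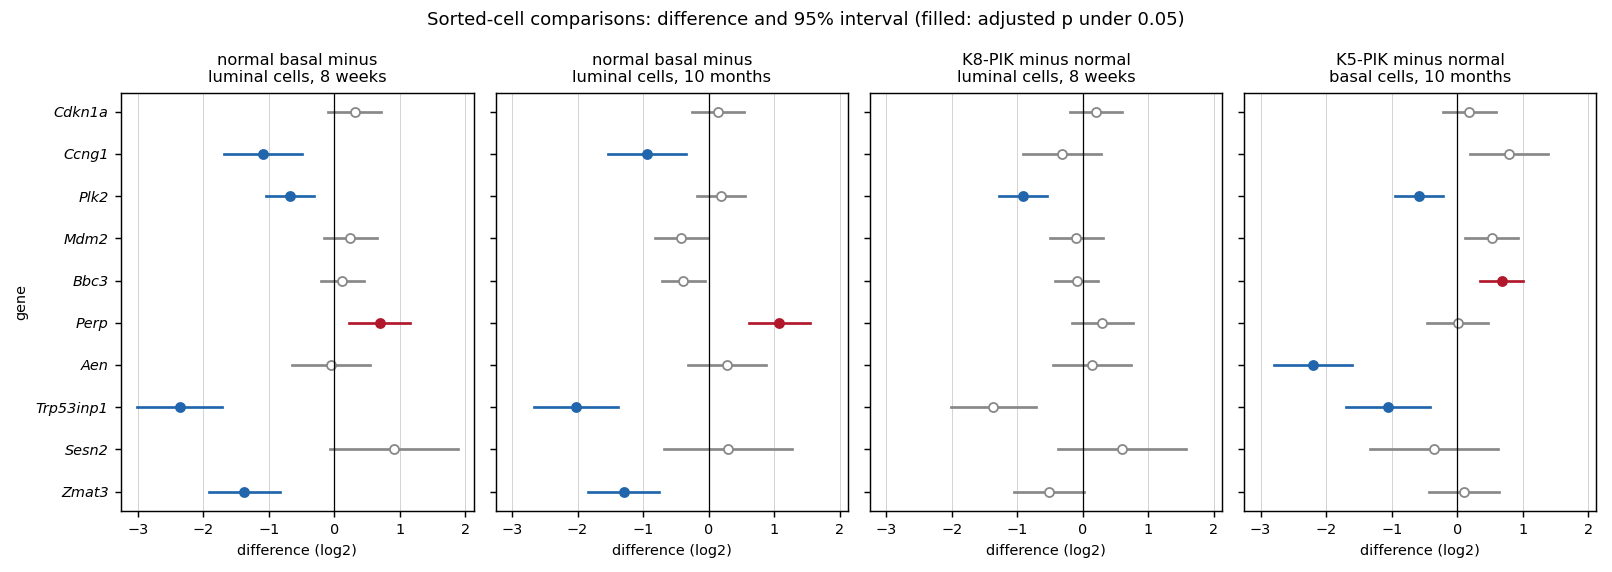
Difference in log2 expression (horizontal axis) of each p53 target gene (vertical axis) in 4 comparisons of sorted cells, with 95% intervals from the limma fit. Filled points were called (red higher, blue lower) and open points were not. Trp53inp1, Zmat3 and Ccng1 are filled on the lower side in both basal against luminal panels, and Aen at -2.20 is the lowest point of the last panel.

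YFP-marked cells from the gate that the Cre driver does not target were compared as well. In K8-PIK mice at 8 weeks, 2 of 10 genes were called higher and 1 lower in the basal gate than in the luminal gate, where 8.9% and 10.6% of genes were, 19.5% in all. Trp53inp1 was 7.28 and 7.58 against 8.59 and 8.62 (-1.18 ± 0.30, limma adjusted p 0.0148). Perp was 10.36 and 10.31 against 9.81 and 9.12 (0.87 ± 0.21, limma adjusted p 0.0130), and Plk2 was 8.65 and 8.81 against 8.29 and 8.10 (0.54 ± 0.17, limma adjusted p 0.0404). The groups did not overlap for 9 of the 10 genes, Trp53inp1, Perp and Plk2 among them, so a lack of overlap did not set the called genes apart. The share without overlap over all genes was not counted. The call of Plk2 was lost without any 1 of the 4 arrays (0.0646 to 0.241). With 1 array left out at a time, that of Trp53inp1 held only without basal-gate replicate 2 (0.0559 to 0.123 otherwise), and that of Perp was lost without luminal-gate replicate 2 or basal-gate replicate 1 (0.160 and 0.0861).

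Against normal basal cells at 8 weeks, none of the 10 genes was called in K8-PIK basal-gate cells, where 0.418% of genes were called (0.335% higher and 0.0837% lower) and 2 of 10 had an unadjusted limma p under 0.05. Zmat3 had the largest difference, 6.25 and 6.27 against 5.63 and 5.05 (0.92 ± 0.25, limma adjusted p 0.135). The K8-PIK luminal-gate values of Zmat3 were close to these, at 6.19 and 6.20. Trp53inp1 differed by -0.18 ± 0.30 (95% interval -0.83 to 0.46).

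In K5-PIK mice at 10 months, 2 of 10 genes were called higher and 3 lower in the luminal gate than in the basal gate, where 10.4% and 13.2% of genes were, 23.6% in all. Trp53inp1 was 8.64 and 9.57 against 7.26 and 6.82 (2.06 ± 0.30, limma adjusted p 0.000272). Perp was 8.79 and 8.87 against 10.24 and 10.25 (-1.42 ± 0.21, limma adjusted p 0.000400). The calls of Trp53inp1 and Perp held without each array in turn. Aen was 8.95 and 8.08 against 7.64 and 7.05 (1.17 ± 0.27, limma adjusted p 0.00767). Mdm2 and Plk2 were lower, with differences of -0.56 ± 0.19 and -0.53 ± 0.17 (limma adjusted p 0.0467 and 0.0375). Aen was lost without luminal-gate replicate 1 or basal-gate replicate 2 (0.0711 and 0.0810), Mdm2 without luminal-gate replicate 2 or basal-gate replicate 1 (0.225 and 0.269), and Plk2 without any 1 array (0.0541 to 0.188). Cdkn1a, at 11.01 and 10.62 against 11.51 and 11.14, differed by -0.51 ± 0.18 and was not called, but it was called lower in 5 of 12 alternatives. These were the fits without luminal-gate replicate 1 or basal-gate replicate 2 (limma adjusted p 0.0297 and 0.0429), the second probe set (0.00997), the mean of probe sets (0.0170) and a trended variance prior (0.0253). Ccng1 was called lower without luminal-gate replicate 2 (-1.21, limma adjusted p 0.00611) and Sesn2 without luminal-gate replicate 1 (-1.41, limma adjusted p 0.00737). The other 2 probe sets of Aen gave 0.57 and 0.76 with limma adjusted p-values of 0.222 and 0.318, and the second of Mdm2 gave -0.53 with 0.0510.

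Against normal luminal cells at 10 months, Plk2 was the 1 gene of 10 called in K5-PIK luminal-gate cells, where 4.32% of genes were called lower and 2.08% higher, 6.4% in all. It was 7.79 and 7.95 against 8.68 and 8.91, and it fell by 0.93 (SE 0.17, 1.90-fold lower, limma adjusted p 0.00909). Without normal luminal replicate 2 its limma adjusted p was 0.105. The differences of all 10 genes were below 0, from -0.06 for Bbc3 to -1.02 for Trp53inp1, with a median of -0.62 beside -0.07 over all genes. In the same comparison 5 of 13 basal markers were called higher, with list means of 7.24 and 7.23 against 6.18 and 6.41. Both erythroid markers tested were called higher as well, with list means of 9.31 and 9.41 against 7.56 and 7.91. What part these markers had in the gene differences was not tested. The 2 K5-PIK luminal arrays differed widely, at 9.24 and 7.37 for Sesn2 and 8.95 and 8.08 for Aen, and they correlated at 0.962, the lowest value of any sorted group. Without replicate 1 Sesn2 (-1.48) and Aen (-1.18) were called in addition to Plk2, and without replicate 2 Ccng1 (-1.36), Trp53inp1 (-1.49) and Zmat3 (-1.01) were.

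Time alone moved none of the 10 genes past the threshold. Between 8 weeks and 10 months limma called 0.0608% of genes in normal luminal cells (0.0304% each way) and 1.27% in normal basal cells (0.875% higher and 0.395% lower). In luminal cells 0 of the 10 genes had an unadjusted limma p under 0.05, and in basal cells 2 had. Plk2 was 8.31 and 8.53 at 8 weeks and 9.07 and 8.88 at 10 months in basal cells (0.56 ± 0.17, limma adjusted p 0.111), and Bbc3 was 6.39 and 6.70 against 6.19 and 6.07 (-0.42 ± 0.15, limma adjusted p 0.161). Cdkn1a, which is often read as a marker of senescent cells, differed by 0.14 (95% interval -0.26 to 0.54) in luminal and by -0.02 (-0.42 to 0.38) in basal cells.

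The oncogene difference in luminal cells at 8 weeks was set against that in basal cells at 10 months, which differ in cell type, Cre driver and time together. Here 1 of 10 genes was called higher and 1 lower, where 4.81% and 6.24% of genes were, 11.1% in all. Aen differed by 2.34 ± 0.39 (limma adjusted p 0.00879) and Bbc3 by -0.78 ± 0.21 (limma adjusted p 0.0392). In the fit on all 28 arrays each of the 6 calls of Plk2 in sorted cells was lost (limma adjusted p 0.245 to 0.939). So were those of Perp in basal against luminal cells at 8 weeks and between the K8-PIK gates, of Trp53inp1 in K5-PIK basal cells and between the K8-PIK gates, of Mdm2 between the K5-PIK gates and of Bbc3 here (limma adjusted p 0.116 to 0.305).

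Over all 11 groups each gene had its own order. Cdkn1a ran from 9.82 ± 0.33 (SD, n = 2) in p53-deleted tumours to 11.33 ± 0.26 (SD, n = 2) in K5-PIK basal cells. Its only step between neighbouring groups without overlap was that from K8-PIK tumours, at 10.74 ± 0.36 (SD, n = 7), to p53-deleted tumours. Mdm2 ran from 8.71 ± 0.34 in p53-deleted tumours to 9.66 ± 0.24 in K5-PIK basal cells, with overlap in 9 of 10 neighbouring pairs. Sesn2 was also lowest in p53-deleted tumours (7.46 ± 0.15) and was highest in K8-PIK basal-gate cells (9.22 ± 0.02).

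Ccng1 ran from 6.63 ± 0.16 in normal basal cells at 10 months to 8.30 ± 0.18 in p53-deleted tumours, and its 3 highest group means were those of the 3 kinds of tumour. The arrays of K5-PIK tumours (mean 8.12) overlapped those of the next group, normal luminal cells at 8 weeks (7.92). Against normal luminal cells Ccng1 was not called in K8-PIK or p53-deleted tumours. Bbc3 was highest in the same p53-deleted tumours (7.37 ± 0.50) and lowest in normal basal cells at 10 months (6.13 ± 0.08). Zmat3 ran from 5.34 ± 0.41 in normal basal cells at 8 weeks to 6.77 ± 0.12 in normal luminal cells at 10 months. Plk2 ran from 7.87 ± 0.11 in K5-PIK luminal-gate cells to 9.10 ± 0.13 in normal luminal cells at 8 weeks, and Perp from 8.83 ± 0.05 in K5-PIK luminal-gate cells to 10.33 ± 0.04 in K8-PIK basal-gate cells. Aen ran from 7.34 ± 0.42 in K5-PIK basal cells to 9.54 ± 0.24 in normal basal cells at 10 months. Trp53inp1 had the widest span of group means, 3.08, and Mdm2 the narrowest, 0.94.

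The 10 genes did not share one pattern over the 11 group means. Over their 45 pairs the median Pearson correlation was 0.07, with 9 pairs above 0.5 and 22 below 0. Cdkn1a was most like Sesn2 (0.83) and Mdm2 (0.80), and the lowest value was that of Ccng1 and Sesn2 (-0.77), as descriptions of 11 group means that share arrays and normalization. Among all genes tested, the group means of Cdkn1a were most like those of Kctd1, Crybg1 and Dicer1 (0.97, 0.96 and 0.96). Those of Mdm2 were most like Fgf1, Fhit and Duxbl1 (0.94, 0.92 and 0.91), and those of Bbc3 most like Abhd8, Pter and Cby1 (0.97, 0.97 and 0.95). For Trp53inp1 they were Cd164, Arg2 and Chp1 (0.98, 0.97 and 0.97), and for Perp they were Capns1, Frmd6 and Camsap2 (0.99, 0.98 and 0.97).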

How the data were processed

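Gene expression was measured on Affymetrix arrays in 28 samples of mouse mammary cells in 11 groups. The values deposited by the authors are on a log2 scale and cover 45141 probe sets. The submitters' processing notes name R 2.14.0, and the normalization is not given in the sources used here. Array medians lay between 4.40 and 4.50. Of the probe sets, 28898 carry 1 gene symbol in the platform annotation, 551 carry several and 15692 have no entry there. They stand for 17097 genes, each read from its brightest probe set on average.

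Groups were taken from the labels. A gene was tested if it exceeded the 40th percentile of an array on at least 2 arrays of the fit. Linear models with 1 mean per group were fitted in R 4.3.3 (limma 3.58.1) to the 12 tumour arrays (13244 genes), the 16 sorted arrays (13150 genes) or, for tumours against sorted cells, all 28 arrays (13663 genes). P-values were adjusted by Benjamini-Hochberg over all genes of a fit, with a threshold of 0.05, and intervals are 95%. The steps were tested on simulated data. The number of arrays limits the precision.

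The 10 genes and the lists of further targets, regulators and markers were chosen with earlier results of these data known. Genes named besides the 10 are up to 4 per list and comparison, those with the largest called differences, plus Mdm4, which was chosen after its values were seen. The 3 genes most like each of the 10 were those with the highest Pearson correlation over the 11 group means. The alternatives were other probe sets, filters, normalization and variance settings, other sets of arrays in the fit, the replicate number as a block and leaving out each array. Some items are not reported here.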

Additional observations from a re-analysis of the deposited data

Results flagged for a closer look

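For 2 of the 10 genes the difference made by the oncogene was not the same in luminal cells at 8 weeks as in basal cells at 10 months, by a test of that difference itself. For Aen the luminal difference of 0.14 minus the basal difference of -2.20 gave 2.34 ± 0.39, with a limma adjusted p of 0.00879, and the call held in 16 of 17 alternatives. It was lost with the third probe set, which gave 2.29 with a limma adjusted p of 0.0544. Both K5-PIK basal arrays were below both normal basal arrays, and both K8-PIK luminal arrays were above both normal luminal arrays. For Bbc3 the luminal difference of -0.10 minus the basal difference of 0.68 gave -0.78 ± 0.21, with a limma adjusted p of 0.0392. The Bbc3 call was lost without any 1 of the 8 arrays, at limma adjusted p-values of 0.0625 to 0.112. The second probe set of Trp53inp1 gave -1.41 in the same test (limma adjusted p 0.0251), while the brighter one gave -0.31. In the same test 8 of 11 genes of the response to tissue dissociation were called lower, and their part was not tested. Cell type, Cre driver and time cannot be told apart here. Dixon's test on the 7 K8-PIK tumours, run once for each of the 10 genes, passed its critical value 0 times. That test looks for 1 lone array and can miss a pair of low ones, such as K8-PIK tumours 1 and 3.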

How the results depend on the processing

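Of 36 calls of the 10 genes in 16 comparisons of groups, 13 held without each array in turn and 23 were lost without at least 1. No called value changed sign under any setting that was run. With all 28 arrays in 1 fit, the number of the 10 genes called went from 0 to 1 for p53-deleted against K8-PIK tumours, from 5 to 3 for basal against luminal cells at 8 weeks and for the K5-PIK gates, from 1 to 0 for K8-PIK luminal cells and for K5-PIK luminal-gate against luminal cells, from 4 to 2 for K5-PIK basal cells, from 3 to 0 for the K8-PIK gates and from 2 to 1 for the oncogene difference. With the compared groups alone it went from 3 to 0 for K8-PIK tumours against luminal cells, from 4 to 7 for p53-deleted tumours against luminal cells and from 1 to 0 for K8-PIK tumours against K8-PIK luminal cells. The mean of probe sets gave 3 instead of 5 for K5-PIK tumours against basal cells and 2 instead of 1 for K8-PIK luminal cells. A trended robust variance prior gave 0 instead of 1 for K8-PIK tumours against K8-PIK luminal cells and 1 instead of 2 for the oncogene difference. Quantile normalization gave 2 instead of 1 for K8-PIK luminal cells, 3 instead of 5 for the K5-PIK gates and 1 instead of 2 for the oncogene difference. Without K8-PIK tumours 1 and 3 together, 2 instead of 0 were called for p53-deleted against K8-PIK tumours and 0 instead of 1 for K8-PIK tumours against K8-PIK luminal cells. The causes of these changes were not tested.

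Samples with the same replicate number are not said to share an animal, so the number was not used as a pairing. The correlation of their deviations varied between comparisons. It was highest for normal basal cells at 10 months against 8 weeks (0.38) and for the K5-PIK gates (0.36). For K5-PIK luminal-gate against normal luminal cells it was 0.20. It was 0.09, -0.09 and 0.21 for K5-PIK and K8-PIK tumours, and lowest (-0.13) for K8-PIK tumours against K8-PIK luminal cells. Calls between the K5-PIK gates thus take no account of a shared animal, if there was one. With the replicate block 2 instead of 1 of the 10 genes were called for K8-PIK tumours against K8-PIK luminal cells and for K5-PIK luminal-gate against luminal cells, and over all genes 2 instead of 43 for p53-deleted against K8-PIK tumours and 150 instead of 0 for K5-PIK against K8-PIK tumours. The block also raised the counts of K8-PIK tumours from 1448 to 2513 and from 341 to 1215, of K8-PIK luminal cells from 46 to 70, of K8-PIK basal-gate cells from 55 to 112, of time from 8 to 23 and 167 to 473, and of the oncogene difference from 1454 to 2221.

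Leaving out single arrays gave 0 to 1 called for p53-deleted against K8-PIK tumours, 1 to 4 for K8-PIK and 2 to 4 for p53-deleted tumours against luminal cells, 2 to 3 for K5-PIK tumours against basal cells and 0 to 1 for K8-PIK tumours against K8-PIK luminal cells. For basal against luminal cells it gave 2 to 4 at 8 weeks and 3 to 4 at 10 months. It gave 0 in each case for K8-PIK luminal cells, 1 to 4 for K5-PIK basal cells, 0 to 2 for the K8-PIK gates, 3 to 5 for the K5-PIK gates, 0 to 4 for K5-PIK luminal-gate cells and 1 for the oncogene difference. Where 1 array of a group was left, it was assumed to vary like the other groups. Over all genes, the p53-deleted against K8-PIK comparison called 43 genes, and 1158 with all 28 arrays, 27 with a stricter filter, 23 with the trended prior and 1576 without K8-PIK tumours 1 and 3. With all 28 arrays the other counts over all genes that moved by over 1.5 times went from 3987 to 2319 (basal against luminal cells at 8 weeks), 46 to 4 (K8-PIK luminal cells), 2143 to 1045 (K5-PIK basal cells), 2558 to 1232 (K8-PIK gates), 55 to 3 (K8-PIK basal-gate against basal cells), 3097 to 1764 (K5-PIK gates), 841 to 100 (K5-PIK luminal-gate cells), 8 to 2 and 167 to 0 (time in luminal and basal cells) and 1454 to 359 (oncogene difference). With the compared groups alone, K8-PIK tumours called 547 instead of 1448 genes against luminal cells and 0 instead of 341 against K8-PIK luminal cells. The stricter filter called 35 instead of 55 genes in K8-PIK basal-gate cells. For time in luminal cells 27 (trended prior) and 20 (quantile normalization) genes were called instead of 8, and for time in basal cells 314 (quantile normalization) instead of 167.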
